A study of Mus musculus with 12 samples.

Results

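The deposited counts hold 28 genes that were close to silent in control epiblast-like cells (EpiLCs) and were read in every Pcbp1 knockout EpiLC library, out of 55487 genes in the table. They were chosen on CPM, the reads of a gene per 1000000 reads of the column total of its library. A gene was kept when it had at most 0.15 CPM in each of the 3 control EpiLC libraries and at least 0.5 CPM in each of the 3 knockout EpiLC libraries. Genes whose symbols start with Magea or Hox, and Afp, Foxa2 and Asz1, were left out by the same rule. Afp, a visceral endoderm gene, was the only gene that met the limits and was removed in this way. Because the EpiLC values chose the genes, those values are given below as a description with no test. The naive libraries took no part in the choice, and the comparison of genotypes was tested there. They come from the same clones as the EpiLC libraries, so that test is not independent of the choice.

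The cells were E14 Tg2a mouse embryonic stem cells, and polyadenylated RNA was sequenced with a stranded mRNA kit. Each genotype was represented by 3 independent clones, named KO for the Pcbp1 knockout clones and WT for the controls, which the sample labels call wild type and the series text calls Scr. EpiLC KO and EpiLC WT libraries came from cells kept for 48 h in N2B27 medium with bFGF, activin A and knockout serum replacement on fibronectin. Naive KO and naive WT libraries came from cells kept in serum-free N2B27 medium with LIF, the MEK inhibitor PD0325901 and the GSK3β inhibitor CHIR99021. Each of the 4 groups held 3 libraries, numbered 1 to 3 in the labels. The sources used here do not state the knockout allele, nor what the control clones carry beyond the name Scr. The naive and EpiLC libraries of a genotype come from the same 3 clones of 1 cell line. The edgeR fit over all 12 libraries, used for the calls below, treated them as independent. Its p-values therefore rest on a spread pooled over both conditions, in which each clone counts once per condition. The fit of the naive libraries alone, also given below, rests on the spread between clones in the naive condition.

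PCBP1 is a KH-domain protein that binds C-rich stretches of RNA and single-stranded DNA, and it takes part in splicing, mRNA stability, translation and the delivery of iron. Naive embryonic stem cells resemble the preimplantation epiblast, and EpiLCs resemble the epiblast shortly after implantation. Many genes used by differentiated tissues are silent in both states. Germ-cell genes are often read: of 72 germline genes listed, only 6 were at or under 0.15 CPM in each EpiLC WT library. In bulk RNA, a gene read in few cells and a gene read weakly in all cells give the same count, and these cannot be told apart here.

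To show what the starts of some of these genes look like, the 250 bases upstream of the RefSeq start are given for 4 of the genes that were called higher in naive KO, in build GRCm38.p6, 5′ to 3′ on the gene's own strand, with each CpG in capitals. The windows are chr10:9675209-9675458 on the minus strand for Samd5, with 35 CpGs, chr1:25829708-25829957 on the minus strand for Adgrb3, with 14, chr19:39886770-39887019 on the minus strand for Cyp2c69, with 2, and chr7:23300942-23301191 on the plus strand for Nlrp4e, with 0.
Samd5: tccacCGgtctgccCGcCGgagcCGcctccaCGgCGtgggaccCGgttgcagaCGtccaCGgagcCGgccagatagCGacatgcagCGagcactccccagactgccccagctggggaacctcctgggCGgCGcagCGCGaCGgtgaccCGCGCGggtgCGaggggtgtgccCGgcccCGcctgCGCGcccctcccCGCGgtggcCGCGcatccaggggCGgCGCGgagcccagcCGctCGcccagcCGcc
Adgrb3: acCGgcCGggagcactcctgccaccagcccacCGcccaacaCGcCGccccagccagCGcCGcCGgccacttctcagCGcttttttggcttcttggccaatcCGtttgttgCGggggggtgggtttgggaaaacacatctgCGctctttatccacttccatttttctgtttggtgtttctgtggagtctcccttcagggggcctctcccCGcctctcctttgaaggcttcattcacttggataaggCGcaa
Cyp2c69: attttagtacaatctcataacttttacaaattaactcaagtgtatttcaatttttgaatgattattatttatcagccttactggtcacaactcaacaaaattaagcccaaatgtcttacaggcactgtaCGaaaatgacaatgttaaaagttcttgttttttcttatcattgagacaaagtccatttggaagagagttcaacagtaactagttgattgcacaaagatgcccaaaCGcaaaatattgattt
Nlrp4e: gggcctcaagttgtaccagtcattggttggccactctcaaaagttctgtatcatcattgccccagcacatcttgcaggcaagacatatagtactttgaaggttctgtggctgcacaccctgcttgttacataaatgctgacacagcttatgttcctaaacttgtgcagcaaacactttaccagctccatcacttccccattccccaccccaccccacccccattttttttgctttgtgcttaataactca
The windows were picked to span the range: of the 17 genes with a window, Samd5 has the most CpGs and Nlrp4e, with Sult6b2, the fewest, so they are no sample of the 28. The deposited table places the end of Cyp2c69 at 39886799, inside its window, so the 2 annotations differ on where that gene starts.

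Library totals ran between 27146744 and 42204511 counts. Pcbp1 had 258 to 314 CPM in EpiLC KO against 505 to 653 CPM in EpiLC WT, and a mean of 304 CPM in naive KO against 447 CPM in naive WT, so its counts were lower in every KO library but were not absent. Pou5f1, a core pluripotency factor, had 554 CPM or more in all 12 libraries, and Fgf5, an EpiLC gene, had at least 83.1 CPM in each EpiLC library and at most 0.651 CPM in each naive one. EpiLC WT replicate 2 kept more of some naive markers than replicates 1 and 3. It had 172 CPM of Zfp42 against 35.9 and 34.4 CPM, and 92.2 CPM of Nanog against 32.8 and 36.2 CPM. Dnmt3b was lower in it (1515 CPM against 2746 and 2559 CPM), while Otx2 was the highest (237 CPM). What this does to the choice of genes was not tested. Of 13 lists of cell type markers, none holds any of the 28 genes. Afp, a gene of the endoderm list, met both limits but had been left out by name. Several lists held called genes in EpiLCs, where 7.22% of all genes tested were called higher and 7.86% lower in KO (15.1% in all). Of 44 tested genes of primitive and visceral endoderm, 14 were called higher and 3 lower in EpiLC KO, and Gata6, a defining factor of that lineage, had 7.53 to 10.9 CPM in EpiLC KO against 0.457 to 4.64 CPM in EpiLC WT. Other genes of that list went the other way: Soat2 had 1.07 to 1.37 CPM against 3.95 to 7.99 CPM, and Vil1 1.04 to 1.26 CPM against 2.45 to 2.98 CPM. Apoa4 and Serpina1a were at 0 CPM in each EpiLC KO library, and Ttr had at most 0.0275 CPM. Of 64 germline genes 15 were called higher and 2 lower, of 16 genes of 2-cell-like cells 6 higher and 0 lower, and of 24 neuroectoderm genes 6 higher and 0 lower. The neuroectoderm list summed to 191 to 231 CPM in EpiLC KO against 138 to 160 CPM in EpiLC WT. Its factor Neurod1 had 14.1 to 24.7 CPM in EpiLC KO against 2.06 to 5.13 CPM in EpiLC WT, while Olig1, Olig2, Rax, Hes5 and Nkx6-1 stayed at or under 0.0550 CPM in each EpiLC KO library. The summed levels of the endoderm, germline and 2-cell-like lists overlapped between the genotypes. The 2-cell-like sum differed widely between the EpiLC KO libraries, from 10.5 to 121 CPM, against 2.73 to 14.5 CPM in EpiLC WT. Among 23 genes of primitive streak and mesoderm 4 were called higher and 0 lower. The counts called higher and lower were 2 and 2 of 18 for muscle, 2 and 1 of 12 for blood and immune cells, 0 and 0 of 7 for fibroblasts and feeders, 0 and 0 of 15 for naive pluripotency and 0 and 0 of 18 for formative pluripotency. The trophoblast list (2 higher, 1 lower of 14) summed to 61.7 to 77.6 CPM in EpiLC KO against 107 to 133 CPM in EpiLC WT, and surface epithelium (0 and 2 of 15) to 205 to 230 CPM against 307 to 331 CPM. In naive cells 4.27% of all genes tested were called higher and 4.95% lower in KO. Of 64 germline genes 9 were called higher there and 4 lower, of 44 endoderm genes 4 and 1, and of 24 neuroectoderm genes 3 and 0. The remaining lists had at most 2 called higher, apart from that of liver, kidney and gut enzymes. Of its 16 tested genes, 7 were called higher and 0 lower in naive KO, against 3 higher and 1 lower in EpiLC KO. Genes named Nat8 are part of the list, and Nat8f7 had 4.86 to 19.6 CPM in naive KO against 0.223 to 0.392 CPM in naive WT. Nat8f3 had 5.21 to 27.7 CPM against 0.558 to 1.38 CPM, while Nat8f1 overlapped between the genotypes. That list summed to 390 to 468 CPM in naive KO against 220 to 303 CPM in naive WT, Akr1c18 had 14.5 to 40.2 CPM against 0.888 to 1.44 CPM, and 8 of its 38 genes, Cyp3a11, Fabp1, Fabp2 and Umod among them, were at 0 in naive KO. The part of these lists in the levels of the 28 genes was not tested.

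In EpiLC KO the 28 genes had means between 0.627 and 2.01 CPM, with a median of 1.05 CPM. The limit of 0.5 CPM stands for 17.4 to 21.1 reads in an EpiLC KO library, and the genes had 18 to 117 reads there. The limit of 0.15 CPM stands for 4.07 to 5.92 reads in an EpiLC WT library, and no gene had more than 5 reads in any of them. None was at 0 reads in all 3 EpiLC WT libraries. Summed over the genes, the level was 34.6, 30.3 and 32.1 CPM in EpiLC KO replicates 1, 2 and 3, against 1.50, 2.32 and 1.24 CPM in EpiLC WT. Per kilobase of exon the EpiLC KO means ran from 0.0493 to 1.58 RPKM with a median of 0.368 RPKM, against a median of 2.59 RPKM over all 18134 genes tested, so these are low transcripts also where they are on.

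The limits cut through a continuum. Just inside the upper limit, Atp6ap1l, Esp6 and Mx1 had 0.518 CPM in their lowest EpiLC KO library, and just outside it the cadherin gene Cdh26 and the transporter gene Slc5a9 had 0.495 CPM. Just inside the lower limit, Adgrb3, Kcnk2 and Sult6b2 had 0.147 CPM in their highest EpiLC WT library, and just outside it Ptprr and Mroh2b had 0.152 CPM and Myt1l had 0.163 CPM. The reverse rule, at most 0.15 CPM in each EpiLC KO library and at least 0.5 CPM in each EpiLC WT library, was met by 0 genes. There were 34880 genes at or under 0.15 CPM in all EpiLC KO libraries and 35913 in all EpiLC WT libraries. With a lower limit of 0.3 CPM the counts were 107 genes against 5 in reverse, and with an upper limit of 0.3 CPM they were 92 against 4. In naive cells the same rule was met by 18 genes silent in WT and on in KO, of which 1, St18, is among the 28, and by 3 genes in reverse.

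**Figure D1:**
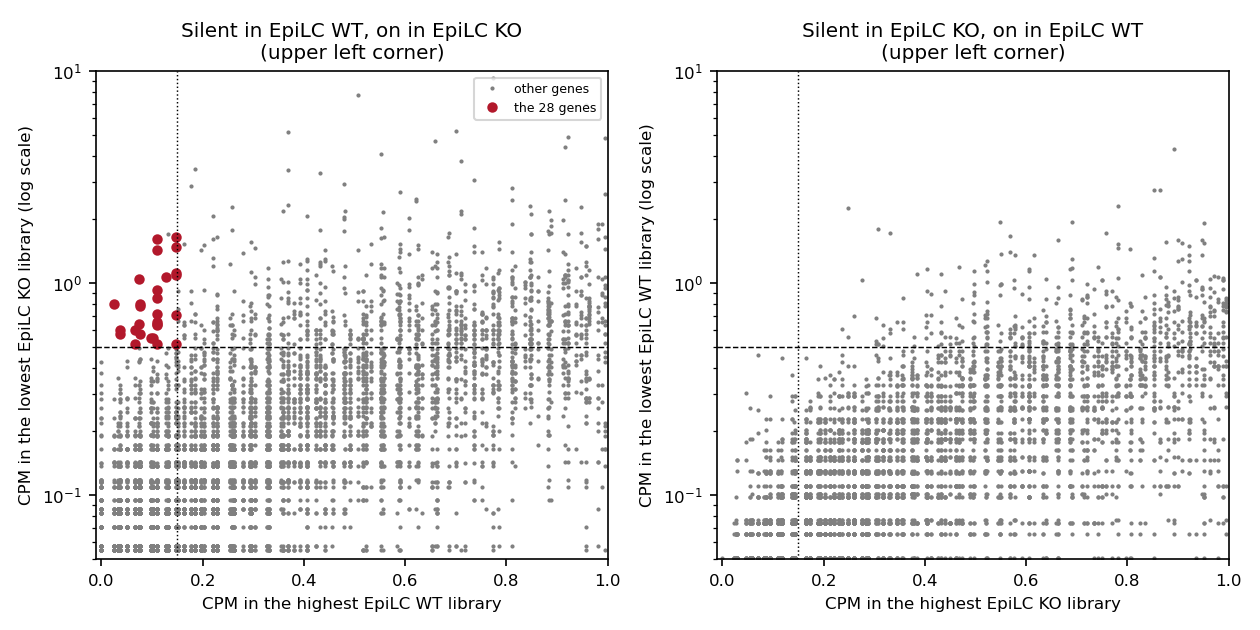
Left, each gene's CPM in its lowest EpiLC KO library (log scale) against its CPM in its highest EpiLC WT library, for genes above 0.05 CPM on the vertical and up to 1 CPM on the horizontal axis; right, the same with the genotypes exchanged. The dotted line is 0.15 CPM and the dashed line 0.5 CPM; the upper left corner holds the 28 genes in red on the left, next to the grey dot of Afp, and no gene on the right.

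In naive cells most of the genes were again higher in KO than in WT. An edgeR quasi-likelihood fit over all 12 libraries called 18 of the 28 genes (64.3%) higher in naive KO at an adjusted p under 0.05, and 0 lower. Of all 18134 genes tested, 4.27% were called higher and 4.95% lower in naive KO, 9.23% in all. That fit takes its estimate of spread from the EpiLC libraries as well, on which the genes were chosen. A fit of the 6 naive libraries alone called 14 of the 28 genes higher, when 3.99% of all genes were called higher; Kcnk2, Tnc, Nlrp4e and Gm5136 lost the call. DESeq2 called 20 of the 28 genes higher, when 6.17% of all genes were called higher, and it called 0 of the 28 lower. The 28 genes entered the test through their EpiLC KO reads, and only 13 of them had enough naive reads to pass the filter by themselves. A closer group is the 692 tested genes at or under 0.15 CPM in each EpiLC WT library, the 28 included, of which 145 (21%) were called higher and 13 (1.88%) lower in naive KO; these had passed the filter through another group. In 20 of the 28 genes the lowest naive KO library stood above the highest naive WT library, which held for 18% of all genes tested. Unadjusted p was under 0.05 for 21 genes, but the share of all genes under that cutoff was not computed, so this count has no comparison.

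The log2 fold changes of the 18 called genes lay between 1.93 and 4.15. A fold change could be given for 26 genes, and 25 of these were above 0, with a median log2 fold change of 2.61 against 0 over all genes tested. Esp6 and Gm32122 had 2 reads each in naive KO and 0 in naive WT, so no fold was computed for them. The count of called genes depended on single libraries. It was 10 without naive KO replicate 1 and 9 without naive WT replicate 3, when 1.84% and 1.88% of all genes were called higher. For 8 genes, St18, Samd5, Col24a1, Cyp2c69, Mx1, Gm7324, Gm47078 and 4930401A07Rik, the call held under each of 17 alternative fits.

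**Figure D2:**
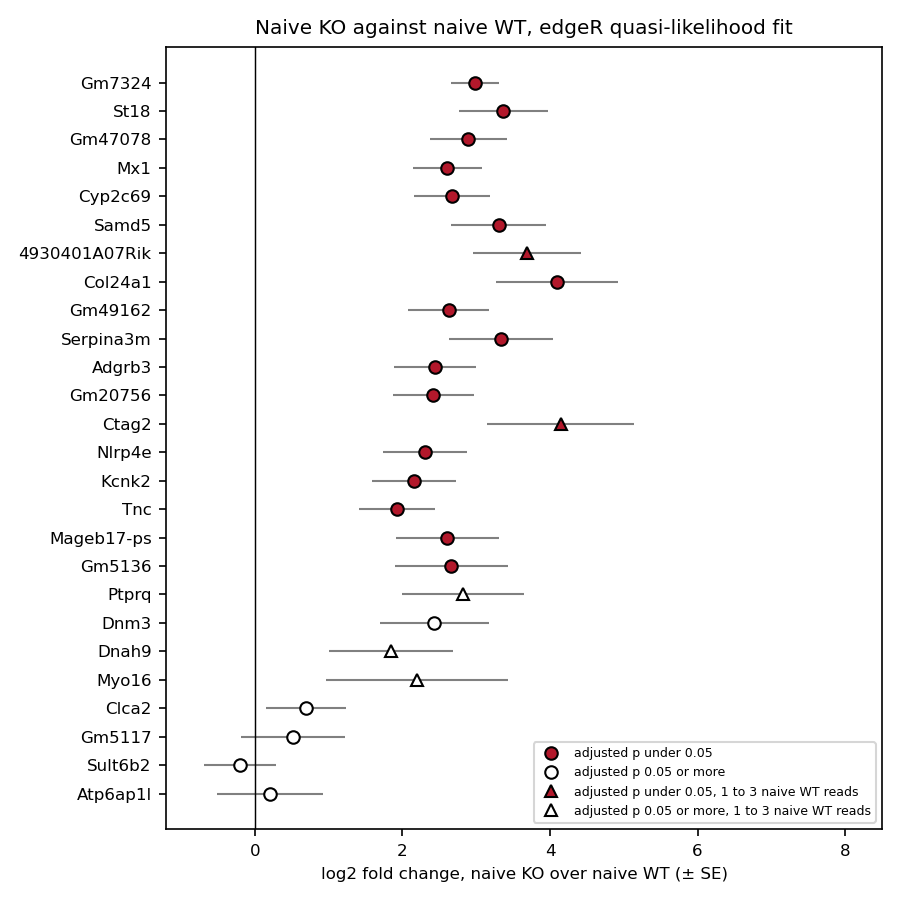
Log2 fold change of naive KO over naive WT with its standard error for the 26 genes that have one, in order of adjusted p, edgeR quasi-likelihood fit over 12 libraries. Red symbols have an adjusted p under 0.05, and triangles mark genes with 1 to 3 naive WT reads in all; the 18 red symbols lie between 1.93 and 4.15, and only Sult6b2 lies below 0.

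By the limits of the rule, 8 of the genes were on in naive KO, with at least 0.5 CPM in each library. They are St18, Kcnk2, Serpina3m, Mx1, Gm7324, Gm47078, Gm49162 and Gm20756, and all 8 were among the genes called. Another 16 lay between the limits in at least 1 naive KO library, and 4, Atp6ap1l, Esp6, Gm32122 and Myo16, were at or under 0.15 CPM in each. In naive WT no gene was on, 12 lay between and 16 were at or under 0.15 CPM in each library. Summed over the 28 genes, the level was 25.8, 21.5 and 18.2 CPM in naive KO replicates 1, 2 and 3, against 2.26, 5.33 and 2.95 CPM in naive WT. Naive WT replicate 2 was the highest of the controls, and the only one in which any of the genes reached 0.5 CPM, with 3 genes above it.

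**Figure D3:**
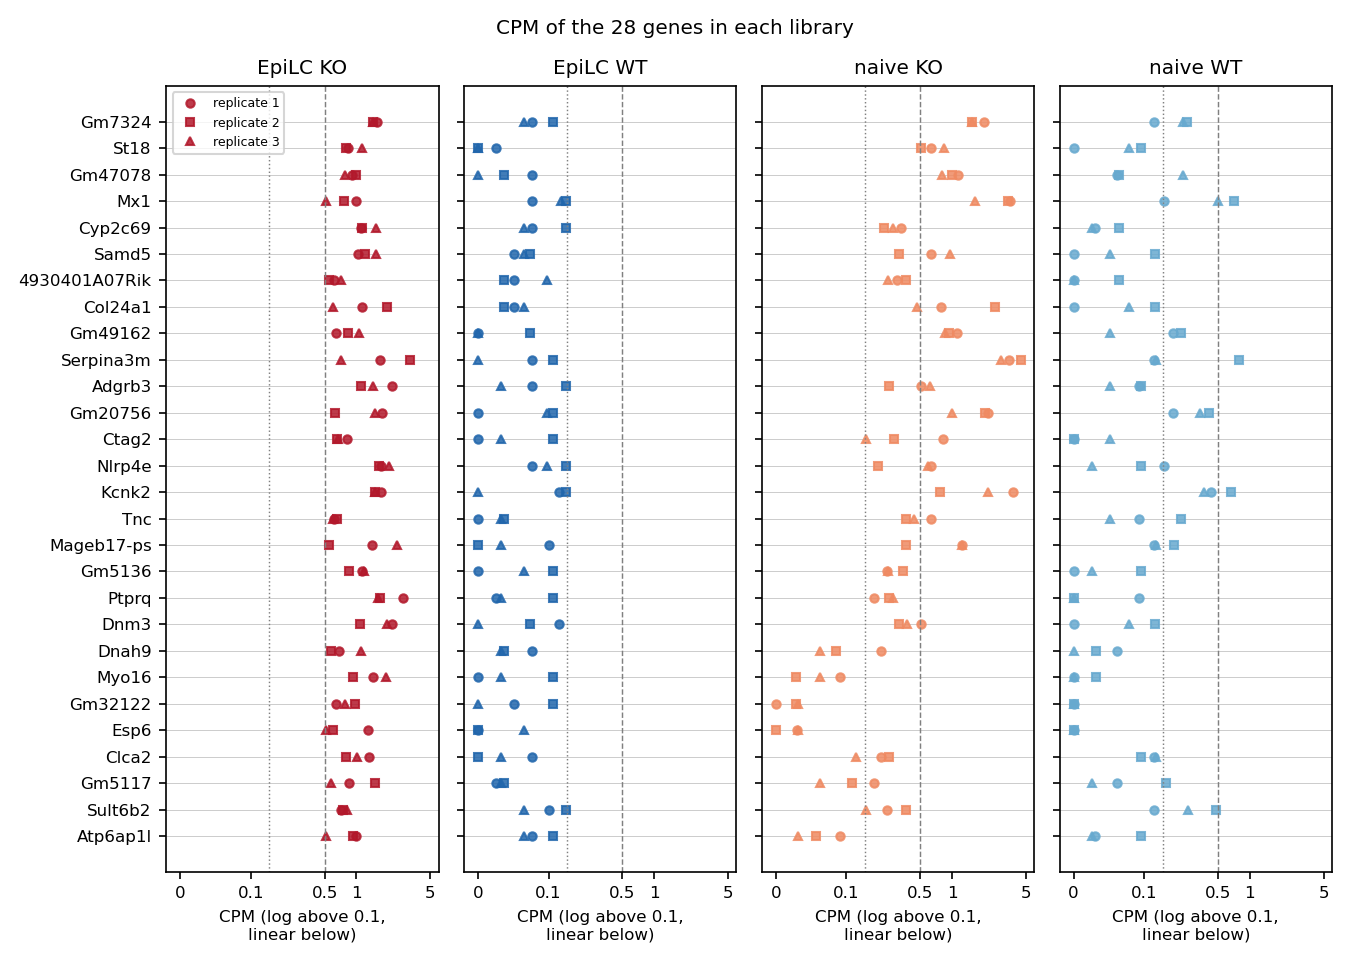
CPM of each of the 28 genes in each library, in order of adjusted p in the naive comparison, on an axis that is linear up to 0.1 CPM and logarithmic above; symbols mark replicates 1, 2 and 3. The dotted line is 0.15 CPM and the dashed line 0.5 CPM; naive KO values lie mostly above naive WT values, and 8 genes are right of the dashed line in all 3 naive KO libraries.

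Genes of nuclear, membrane and signalling proteins are described first. St18 encodes a zinc-finger transcription factor of the MYT family. It had 0.829, 0.797 and 1.12 CPM in EpiLC KO, against 0.0253, 0 and 0 CPM in EpiLC WT. In naive cells it had 0.634, 0.511 and 0.837 CPM in KO, against 0, 0.0958 and 0.0784 CPM in WT. The naive groups were far apart, and the log2 fold change was 3.37 (SE 0.598, adjusted p = 0.00474, edgeR). It was thus the only one of the genes that met the silent and on limits in both conditions.

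Adgrb3, an adhesion G protein-coupled receptor of the brain, had 2.18, 1.10 and 1.44 CPM in EpiLC KO, against 0.0760, 0.147 and 0.0327 CPM in EpiLC WT. Its naive KO libraries had 0.513, 0.255 and 0.620 CPM, against 0.0930, 0.0958 and 0.0523 CPM in WT. Every naive KO library was above every naive WT library (log2 fold change 2.45, SE 0.556, adjusted p = 0.0172). Leaving out naive KO replicate 1 or naive WT replicate 3 ended the call, with adjusted p of 0.0620 and 0.0784.

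Kcnk2, a background potassium channel, had a higher mean in naive KO than in EpiLC KO, though replicate 2 was lower (0.766 against 1.48 CPM). It had 1.71, 1.48 and 1.50 CPM in EpiLC KO, against 0.127, 0.147 and 0 CPM in EpiLC WT. Under naive conditions the values were 3.80, 0.766 and 2.20 CPM in KO, against 0.434, 0.670 and 0.366 CPM in WT, the highest naive WT mean of the 28 genes (0.490 ± 0.160 CPM, SD, n = 3). The naive log2 fold change was 2.16 (SE 0.570, adjusted p = 0.0336). The naive KO libraries were wide apart, and the fold change was 1.54 without naive KO replicate 1. The call was lost in the naive libraries alone (adjusted p = 0.0545), and when naive KO replicate 1 or 3 or any naive WT library was left out (0.0537 to 0.172). Of 13 relatives named Kcnk, 6 were tested, and 0 were called higher and 3 lower in naive KO.

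Samd5, which encodes a small protein with a sterile alpha motif, had 1.04, 1.21 and 1.53 CPM in EpiLC KO, against 0.0507, 0.0737 and 0.0653 CPM in EpiLC WT. Naive culture gave 0.634, 0.312 and 0.961 CPM in KO, against 0, 0.128 and 0.0523 CPM in WT. It rose with a log2 fold change of 3.30 (SE 0.647, adjusted p = 0.00828), and with 4.25 when naive WT replicate 2, the highest control, was left out.

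Ptprq and Dnm3 missed the threshold in naive cells although their groups did not overlap. Ptprq, a receptor-type phosphatase of the hair bundles of the inner ear, had the highest EpiLC KO mean of the 28 genes, with 2.75, 1.68 and 1.61 CPM, against 0.0253, 0.111 and 0.0327 CPM in EpiLC WT. The naive levels were 0.181, 0.255 and 0.279 CPM in KO, against 0.0930, 0 and 0 CPM in WT. Those values rest on 24 reads in naive KO and 3 in naive WT, a ratio of 8.10 with a 95% counting interval of 2.46 to 42.0 (adjusted p = 0.0519).

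Dnm3, a dynamin GTPase of synapses and testis, had 2.16, 1.07 and 1.96 CPM in EpiLC KO, against 0.127, 0.0737 and 0 CPM in EpiLC WT. In naive cells it had 0.513, 0.312 and 0.372 CPM in KO, against 0, 0.128 and 0.0784 CPM in WT (log2 fold change 2.43, SE 0.737, adjusted p = 0.0580). Both Ptprq and Dnm3 were called by DESeq2 (adjusted p = 0.0278 and 0.0154). Exons of Dnm3 overlap those of 2810442N19Rik and Gm10176, and reads in the overlap were not counted for either gene.

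The 2 large motor proteins were close to silent in naive cells of both genotypes. Dnah9, a heavy chain of the outer dynein arms of cilia, had 0.687, 0.577 and 1.09 CPM in EpiLC KO, against 0.0760, 0.0368 and 0.0327 CPM in EpiLC WT. Its naive KO libraries had 0.211, 0.0852 and 0.0620 CPM, against 0.0620, 0.0319 and 0 CPM in WT, from 12 and 3 reads (ratio 4.05, 95% counting interval 1.09 to 22.4, adjusted p = 0.207). Its naive KO and WT values meet at 0.0620 CPM. Of 15 tested relatives named Dnah, 1 was called higher and 1 lower in naive KO.

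Myo16, an unconventional myosin of the brain, showed the widest gap between the 2 knockout conditions among the genes with more than 3 naive KO reads. It had 1.42, 0.935 and 1.90 CPM in EpiLC KO, against 0, 0.111 and 0.0327 CPM in EpiLC WT. Under naive conditions the values were 0.0906, 0.0284 and 0.0620 CPM in KO, against 0, 0.0319 and 0 CPM in WT, from 6 reads and 1 read (ratio 6.07, 95% counting interval 0.737 to 279.4). A difference in naive cells was not detectable at this depth (adjusted p = 0.309).

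Among genes of defence, secretion and metabolism, Mx1 and Serpina3m were the highest in naive KO. Mx1 encodes an interferon-induced, dynamin-like GTPase that restricts viruses. It had 0.995, 0.770 and 0.518 CPM in EpiLC KO, against 0.0760, 0.147 and 0.131 CPM in EpiLC WT. Naive culture gave 3.50, 3.41 and 1.64 CPM in KO, against 0.155, 0.702 and 0.496 CPM in WT. The naive groups were apart (log2 fold change 2.61, SE 0.468, adjusted p = 0.00501), and naive KO exceeded EpiLC KO in each replicate number.

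Serpina3m belongs to a mouse cluster of serpins related to antichymotrypsin. It had 1.66, 3.22 and 0.720 CPM in EpiLC KO, against 0.0760, 0.111 and 0 CPM in EpiLC WT. The naive levels were 3.47, 4.46 and 2.88 CPM in KO, against 0.124, 0.798 and 0.131 CPM in WT, and its naive KO mean of 3.60 ± 0.796 CPM (SD, n = 3) was the highest of the 28 genes. The naive log2 fold change was 3.34 (SE 0.701, adjusted p = 0.0115). It was 4.70 without naive WT replicate 2, and the call was lost without naive WT replicate 3 (adjusted p = 0.0559).

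Serpina3m shares exon positions with Serpina3k. That neighbour had 0.362, 0.852 and 0.403 CPM in naive KO, against 0.0310, 0.0958 and 0 CPM in naive WT (log2 fold change 3.61, SE 0.821, adjusted p = 0.0219). Serpina3n, 12471 bases to its right, was called higher in naive KO too (2.63, SE 0.661, adjusted p = 0.0274). Of 10 relatives named Serpina3, 4 were tested, and Serpina3k and Serpina3n were the 2 called higher, with 0 lower. Serpina3h and Serpina3i were not called (adjusted p = 0.373 and 0.645, edgeR). Reads that fit more than 1 of these paralogs were not counted, and how many were lost is unknown.

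Cyp2c69, a cytochrome P450 of a family that oxidises drugs and fatty acids in liver and other tissues, had 1.11, 1.13 and 1.53 CPM in EpiLC KO, against 0.0760, 0.147 and 0.0653 CPM in EpiLC WT. In naive cells it had 0.332, 0.227 and 0.279 CPM in KO, against 0.0310, 0.0638 and 0.0261 CPM in WT. It rose in a narrow range (log2 fold change 2.67, SE 0.512, adjusted p = 0.00738). Of 14 relatives named Cyp2c, 3 were tested and 1, Cyp2c55, was called in naive cells, with 2.81, 2.24 and 0.868 CPM in KO against 0.0620, 0.128 and 0.0784 CPM in WT (log2 fold change 4.38, SE 0.478, adjusted p = 0.000299).

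The other 3 genes of this kind were not called in naive cells. Sult6b2, a sulfotransferase, had 0.711, 0.742 and 0.807 CPM in EpiLC KO, against 0.101, 0.147 and 0.0653 CPM in EpiLC WT. Its naive KO libraries had 0.242, 0.369 and 0.155 CPM, against 0.124, 0.479 and 0.261 CPM in WT, and the groups overlapped (log2 fold change -0.20, SE 0.484, adjusted p = 0.851). The sign of that fold change turned when naive KO replicate 3 or naive WT replicate 2 was left out (0.018 and 0.30). Of 26 relatives named Sult, 5 were tested, and 1 was called higher and 1 lower in naive KO.

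Atp6ap1l, which resembles an accessory subunit of the vacuolar proton pump, had 0.995, 0.935 and 0.518 CPM in EpiLC KO, against 0.0760, 0.111 and 0.0653 CPM in EpiLC WT. In naive cells it had at most 3 reads in any library of either genotype (log2 fold change 0.21, SE 0.717, adjusted p = 0.903). Esp6, of the exocrine-gland-secreted peptides that mice use as pheromones, had 1.28, 0.605 and 0.518 CPM in EpiLC KO, against 0, 0 and 0.0653 CPM in EpiLC WT. With 2 reads in naive KO and 0 in naive WT, any naive difference was below what this depth can show.

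Of the matrix and surface genes, Col24a1 varied most between knockout clones. It encodes a fibrillar collagen. It had 1.14, 1.95 and 0.605 CPM in EpiLC KO, against 0.0507, 0.0368 and 0.0653 CPM in EpiLC WT. Under naive conditions the values were 0.785, 2.55 and 0.465 CPM in KO, against 0, 0.128 and 0.0784 CPM in WT, so replicate 2 was the highest KO library and replicate 3 the lowest in both conditions. The naive log2 fold change was 4.10 (SE 0.830, adjusted p = 0.00968), 3.05 without naive KO replicate 2 and 4.72 without naive WT replicate 2.

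Tnc, the matrix glycoprotein tenascin C, had the smallest spread between EpiLC KO clones, with 0.616, 0.660 and 0.605 CPM, against 0, 0.0368 and 0.0327 CPM in EpiLC WT. Naive culture gave 0.634, 0.369 and 0.434 CPM in KO, against 0.0930, 0.223 and 0.0523 CPM in WT (log2 fold change 1.93, SE 0.515, adjusted p = 0.0355). The fold change was 2.60 without naive WT replicate 2. The call was lost without any one naive KO library, without naive WT replicate 1 or 3, and without EpiLC KO replicate 1 or 2 (adjusted p = 0.0508 to 0.147), and in the naive libraries alone (0.0696).

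Clca2, of a family first described as regulators of chloride channels, had 1.33, 0.797 and 1.01 CPM in EpiLC KO, against 0.0760, 0 and 0.0327 CPM in EpiLC WT. The naive levels were 0.211, 0.255 and 0.124 CPM in KO, against 0.124, 0.0958 and 0.131 CPM in WT. These groups overlapped (log2 fold change 0.69, SE 0.542, adjusted p = 0.485).

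A further 3 genes belong to families known from oocytes, testis or tumours. Nlrp4e is one of the NLR-family genes expressed in oocytes and early embryos. It had 1.71, 1.65 and 2.02 CPM in EpiLC KO, against 0.0760, 0.147 and 0.0980 CPM in EpiLC WT. In naive cells it had 0.634, 0.199 and 0.589 CPM in KO, against 0.155, 0.0958 and 0.0261 CPM in WT (log2 fold change 2.31, SE 0.571, adjusted p = 0.0253). The call was lost in the naive libraries alone (adjusted p = 0.0768), and without naive KO replicate 1 or 3 or naive WT replicate 2 or 3 (0.0595 to 0.104).

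The relatives Nlrp4c and Nlrp4g were called higher in naive KO too. Nlrp4c had 27.8, 19.0 and 27.5 CPM in naive KO, against 5.52, 3.03 and 7.13 CPM in naive WT (log2 fold change 2.19, SE 0.382, adjusted p = 0.00424). Nlrp4g had 1.36, 1.67 and 1.21 CPM in naive KO, against 0.0620, 0.0958 and 0.105 CPM in naive WT (3.91, SE 0.446, adjusted p = 0.000369). Of 20 relatives named Nlrp, 11 were tested, and these 2 were the ones called higher in naive KO, with 0 called lower. In EpiLCs 4 of the 11 were called higher and 1 lower. The relatives were looked at after the values of the 28 genes were known.

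Ctag2, of a cancer/testis antigen family on the X chromosome, had 0.806, 0.660 and 0.662 CPM in EpiLC KO, against 0, 0.111 and 0.0327 CPM in EpiLC WT. Its naive KO libraries had 0.815, 0.284 and 0.155 CPM, against 0, 0 and 0.0523 CPM in WT, from 42 and 2 reads (ratio 21.3, 95% counting interval 5.53 to 181.3). The naive groups did not overlap (fitted log2 fold change 4.15, SE 0.996, adjusted p = 0.0220). Without naive KO replicate 1 the fold change was 3.22 and the call was lost, as it was without naive WT replicate 1 or 2 (adjusted p = 0.0676 to 0.101). Without naive WT replicate 3 no control read was left.

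Mageb17-ps, annotated as an unprocessed pseudogene of the Mageb family on the X chromosome, had 1.40, 0.550 and 2.42 CPM in EpiLC KO, against 0.101, 0 and 0.0327 CPM in EpiLC WT. Under naive conditions the values were 1.24, 0.369 and 1.24 CPM in KO, against 0.124, 0.192 and 0.131 CPM in WT (log2 fold change 2.61, SE 0.698, adjusted p = 0.0356). Replicate 2 was the lowest KO library in both conditions. The call was lost without EpiLC KO replicate 1, naive KO replicate 1 or 3, or any one naive WT library (adjusted p = 0.0522 to 0.124). Of 13 other Mageb genes, 4 were tested and 0 were called in either direction in either condition, although Mageb6-ps had a naive log2 fold change of 2.88 (SE 0.939, adjusted p = 0.0767), Mageb7-ps 2.46 (SE 1.04, adjusted p = 0.169) and Mageb4 1.48 (SE 0.564, adjusted p = 0.127).

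The remaining 8 genes carry only predicted-gene or clone names, and no role is given for them. Gm7324, annotated as protein coding, had the smallest adjusted p in naive cells. It had 1.56, 1.43 and 1.44 CPM in EpiLC KO, against 0.0760, 0.111 and 0.0653 CPM in EpiLC WT. Naive culture gave 1.99, 1.56 and 1.55 CPM in KO, against 0.124, 0.255 and 0.235 CPM in WT. Both conditions gave tight KO values, and the naive log2 fold change was 2.98 (SE 0.320, adjusted p = 0.000288). Its neighbours on chromosome 14, Gm21154 to the left and Gm6526 to the right, were called higher in naive KO too (3.39, SE 0.797, adjusted p = 0.0201, and 3.43, SE 0.419, adjusted p = 0.000499).

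Gm5136, the other predicted protein-coding gene, lies inside the gene body of Syt1. It had 1.14, 0.852 and 1.18 CPM in EpiLC KO, against 0, 0.111 and 0.0653 CPM in EpiLC WT. The naive levels were 0.242, 0.341 and 0.248 CPM in KO, against 0, 0.0958 and 0.0261 CPM in WT (log2 fold change 2.66, SE 0.767, adjusted p = 0.0479). The fold change was 3.91 without naive WT replicate 2. The call was lost in 9 of the 12 fits that left out 1 library, all but those without naive WT replicate 2 or EpiLC WT replicate 1 or 2 (adjusted p = 0.0625 to 0.160), and in the naive libraries alone (0.0667).

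Of the 5 lincRNAs, 3 were on in naive KO. Gm47078 had 1.15, 0.993 and 0.806 CPM in naive KO, against 0.0620, 0.0638 and 0.235 CPM in naive WT (log2 fold change 2.89, SE 0.519, adjusted p = 0.00496; 3.82 without naive WT replicate 3). Gm49162 had 1.12, 0.937 and 0.868 CPM in naive KO, against 0.186, 0.223 and 0.0523 CPM in naive WT (2.63, SE 0.543, adjusted p = 0.0106; 0.0510 without naive WT replicate 3). Gm20756 had 2.20, 2.04 and 0.991 CPM in naive KO, against 0.186, 0.415 and 0.340 CPM in naive WT (2.42, SE 0.553, adjusted p = 0.0177). All 3 had separate groups, though the call of Gm20756 was lost without naive KO replicate 1 or 2 or naive WT replicate 1 or 3 (adjusted p = 0.0503 to 0.0741).

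In EpiLCs, Gm47078 had 0.900, 0.990 and 0.778 CPM in KO, against 0.0760, 0.0368 and 0 CPM in WT. Gm49162 had 0.640, 0.825 and 1.07 CPM in EpiLC KO, against 0, 0.0737 and 0 CPM in EpiLC WT. Gm20756 had 1.75, 0.632 and 1.50 CPM in EpiLC KO, against 0, 0.111 and 0.0980 CPM in EpiLC WT. Each of these lincRNAs was thus read at 0.5 CPM or more in every KO library of both conditions.

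The naive KO levels of the other 2 lincRNAs were below those of Gm47078, Gm49162 and Gm20756. 4930401A07Rik had 0.616, 0.550 and 0.720 CPM in EpiLC KO, against 0.0507, 0.0368 and 0.0980 CPM in EpiLC WT. In naive cells it had 0.302, 0.369 and 0.248 CPM in KO, against 0, 0.0638 and 0 CPM in WT, from 31 and 2 reads (ratio 15.7, 95% counting interval 3.99 to 135.3, fitted log2 fold change 3.69, SE 0.731, adjusted p = 0.00871). The fitted value was 3.08 without naive WT replicate 3, and without naive WT replicate 2 no control read was left. Gm32122 had 0.640, 0.962 and 0.778 CPM in EpiLC KO, against 0.0507, 0.111 and 0 CPM in EpiLC WT, and 2 reads in all in naive KO.

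Gm5117, a processed pseudogene, had 0.853, 1.51 and 0.576 CPM in EpiLC KO, against 0.0253, 0.0368 and 0.0327 CPM in EpiLC WT. Its naive KO libraries had 0.181, 0.114 and 0.0620 CPM, against 0.0620, 0.160 and 0.0261 CPM in WT. The naive groups overlapped (log2 fold change 0.52, SE 0.703, adjusted p = 0.710).

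Between the 2 knockout conditions, 20 of the 28 genes had a higher mean CPM in EpiLC KO than in naive KO and 8 had a lower one. This is a description, since the EpiLC KO level was part of the choice. For 13 genes the EpiLC KO mean was at least 3-fold the naive KO mean. The ratio was 23.5 for Myo16, 13.7 for Atp6ap1l, 8.44 for Ptprq and 8.25 for Gm5117. At the other end it was 0.267 for Mx1, 0.518 for Serpina3m and 0.692 for Kcnk2, whose means were thus higher in naive KO.

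**Figure D4:**
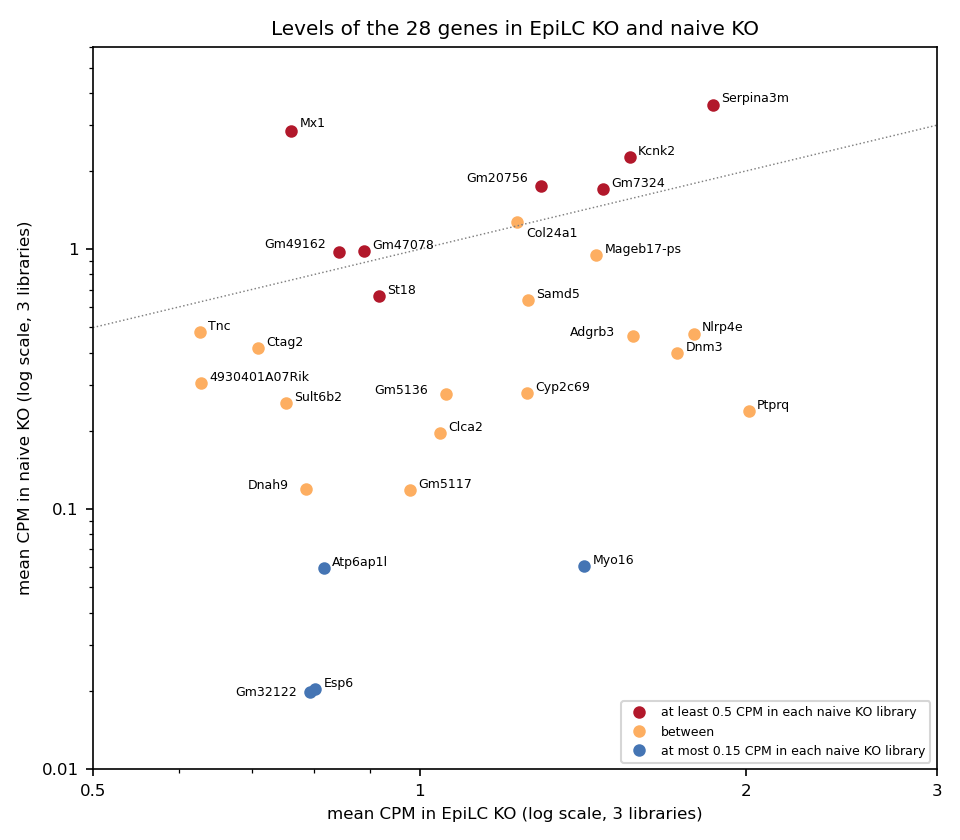
Mean CPM of each of the 28 genes in naive KO against its mean in EpiLC KO, both on log scales, 3 libraries each; the dotted line marks equal levels. Red genes had at least 0.5 CPM and blue genes at most 0.15 CPM in each naive KO library; EpiLC KO means span 0.627 to 2.01 CPM, while naive KO means span 0.0198 to 3.60 CPM.

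The knockout clones differed in which genes they had most of. Among the EpiLC KO libraries, replicate 1 was the highest for 11 genes, replicate 2 for 6 and replicate 3 for 11. Among the naive KO libraries the counts were 15, 6 and 7. The same replicate number was the highest in both conditions for 12 of the 28 genes. The coefficient of variation between EpiLC KO libraries ran from 4.62% for Tnc to 67.6% for Serpina3m, with a median of 25.4%.

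By GENCODE type, 21 of the genes are protein coding, 5 are lincRNAs, and 1 each is a processed and an unprocessed pseudogene. The protein-coding share was 75% against 81.1% of all genes tested and 19.3% of the genes silent in EpiLC WT. The lincRNA share was 17.9%, against 3.87% of the genes tested and 13.4% of those silent in EpiLC WT. The protein-coding genes spanned a median of 55.8 kb of the genome, against 23.9 kb for all protein-coding genes tested. Adgrb3, for example, runs from position 25067476 to 25829707 of chromosome 1, and Ctag2 from 65047644 to 65049014 of the X chromosome (GRCm38).

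The genes lie on 16 chromosomes. Chromosome 10 holds 5 of them, Samd5, Gm47078, 4930401A07Rik, Ptprq and Gm5136, and chromosome 1 holds 4, St18, Adgrb3, Dnm3 and Kcnk2. Chromosome 8 holds 3, Myo16, Gm5117 and Gm32122, and chromosomes 3, 6 and X hold 2 each. Of all genes tested, 4.74% lie on chromosome 10 and 5.83% on chromosome 1, against 17.9% and 14.3% of the 28 genes. No 2 of the genes lie within 100 kb of each other. The nearest pair is Clca2 and Col24a1 on chromosome 3, 193028 bases apart, and the next is Ptprq and Gm5136 on chromosome 10, 978712 bases apart.

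The nearest tested genes on either side within 500 kb came to 38, of which 4 (10.5%) were called higher and 1 lower in naive KO, against 4.27% of all genes called higher. In EpiLC KO 5 (13.2%) were called higher and 0 lower, against 7.22% of all genes called higher. Their median log2 fold change was 0.07 in naive cells and 0.31 in EpiLCs. Besides Serpina3n, Gm21154 and Gm6526, the fourth called higher in naive KO was 2210009P08Rik, 3576 bases to the right of Mx1 (log2 fold change 2.71, SE 0.518, adjusted p = 0.00728). The 1 called lower was Stxbp5, 80338 bases to the right of Samd5, with a log2 fold change of -1.73 (SE 0.297, adjusted p = 0.00405). Over up to 20 genes on each side with a mean of at least 5 CPM (40 in all for 26 of the genes, 25 for St18 and 24 for Mx1), the median log2 difference of a KO library from the WT mean lay between -0.30 and 0.48 for all 28 genes and all 6 KO libraries. The highest value was around Cyp2c69 in EpiLC KO replicate 3, with 0.33 in naive KO replicate 3 and 0.07 to 0.11 in KO replicates 1 and 2. Around Esp6, naive KO replicates 1 and 2 had 0.36 and 0.30, against -0.07 in replicate 3. The chromosome 10 genes 4930401A07Rik, Ptprq and Gm5136 had surrounding values between 0.10 and 0.32 in all 6 KO libraries. Those around Clca2 and Col24a1 on chromosome 3 lay between 0.06 and 0.32, and those around Nlrp4e and Dnah9 were all below 0. The cause of these differences was not tested.

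Gene bodies of 15 of the 28 overlap another gene of the annotation, and exons of 8 do so on either strand. These 8 are Dnm3, Kcnk2, Tnc, Gm20756, Dnah9, Serpina3m, Gm7324 and Esp6, and for them a read in the overlap was left uncounted. The other 20 have no exon overlap. Of the 8 genes whose naive call held under every alternative fit, Gm7324 is the only one with an exon overlap.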

How the data were processed

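Polyadenylated RNA was measured in 12 libraries, 4 groups of 3. The deposited values are raw read counts per gene, made by the authors with featureCounts 2.0.1 on GENCODE vM25, per the file headers; fastp, FastQC, STAR and GRCm38/mm10 are named in the submitters' processing notes. The header shows no option for strand, multi-mapping or overlapping reads, so by the tool's defaults strand was ignored and such reads were not counted. The deposited exon length gave RPKM. Column totals were 27146744 to 42204511. Symbols were matched for 55227 of 55487 genes, and gene types come from GENCODE vM21. The other 260 genes took at most 0.00937% of any library and stayed in.

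Counts were tested in edgeR 4.0.16 (R 4.3.3), with TMM, filterByExpr (minimum count 10, total 15; 18134 genes), quasi-likelihood fits of 4 group means (8 residual degrees of freedom) and Benjamini-Hochberg adjustment over all genes tested; the threshold was 0.05. Standard errors are the log2 fold change over the square root of F. The script was tested on simulated data. DESeq2 1.42.0 and other settings were alternatives. Ratios of few reads have exact 95% intervals, which cover counting error only, and no fold is given where both groups have 3 reads or fewer. Within a genotype, naive and EpiLC libraries with 1 number deviated together from their group means (r = 0.207 to 0.315). Replicate pairs differed by more than sampling noise (chi-square per gene 15.2 to 71.5).

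The genes, lists, limits and tests were chosen with earlier results of these data known. All 28 genes are named; full values go to those highest per kilobase, with the smallest adjusted p, or nearest the limits of the rule. RefSeq upstream sequence was matched for 17 of 28 genes (60.7%), under the 80% needed, so a comparison of CpGs and of the motifs planned is void and none is given.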

Additional observations from a re-analysis of the deposited data

How the results depend on the processing

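The 18 genes called higher in naive KO came to 18 with RLE size factors, 20 with DESeq2, 20 without a filter, 14 in naive libraries alone, and 9 to 19 when 1 library was left out. The shares of all genes called higher were, in the same order, 4.21%, 6.17%, 3.21%, 3.99%, and 1.84% to 5.55%. KO and WT libraries of the same number did not deviate together in naive cells (r = 0.00960, 0.0300 and -0.0898), so numbers do not pair them. With the replicate block in the edgeR fit 15 genes were called, when 4.10% of all genes were called higher. Kcnk2, Tnc and Gm5136 lost the call in that fit (adjusted p = 0.0553, 0.0548 and 0.0659). The rule found 11 genes with a silent limit of 0.1 CPM, 107 with 0.3 CPM, 8 with an on limit of 1 CPM and 92 with 0.3 CPM, 28 on TMM-scaled CPM, and 32 to 54 when 1 EpiLC library was left out. With limits of 0.1 and 1 CPM, 3 genes were on in naive KO. The cause of these changes was not tested, beyond fewer libraries making the rule easier to meet. Of genes not called, Sult6b2 ranged from -0.59 to 0.30 when 1 library was left out, turning to 0.018 without naive KO replicate 3 and 0.30 without naive WT replicate 2, and Atp6ap1l ranged from -0.21 to 0.90, turning to -0.21, -0.027 and -0.14 without naive KO replicate 1, naive WT replicate 1 and naive WT replicate 3. No gene was called lower in naive KO under any of these fits. Read depth is the main limit: at 0.15 CPM a library holds about 5 reads, and the naive values of Esp6, Gm32122, Myo16 and Atp6ap1l rest on 6 reads or fewer per genotype.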
